A study of Mus musculus with 26 samples.

Results

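The 51 genes described here encode the protein core of the spliceosome's small nuclear ribonucleoproteins (snRNPs) and the machinery that assembles it. They were selected by gene symbol from a list of the pathway's genes, and no threshold on a measured value was part of the rule. They comprise 7 Sm ring genes, 5 genes of U1 and U2 snRNP-specific proteins, 9 SF3A and SF3B genes, 2 genes of the U2 auxiliary factor, 7 LSm genes of the U6 ring, 2 LSm genes of the U7 snRNP, 9 tri-snRNP and Prp19 genes, 3 genes of the minor U11/U12 snRNP and 7 genes of the SMN complex. Of the 51 listed genes, 50 passed the filter on low counts both among the 14835 genes tested in MC38 cells and among the 13753 tested in T cells. Gemin4, a subunit of the SMN complex, was found in neither normalized table. By its identifier it had 0 to 5 raw counts in each MC38 library, and it was not tested.

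The series compares inhibitors of the arginine methyltransferase PRMT5 in tumour cells with and without Mtap and in T cells, using poly(A) RNA sequencing. The tumour cells were MC38/gp100, derived from a mouse colon adenocarcinoma and carrying the gp100 antigen, as wild-type cells and as cells with the Mtap knockout (KO). The pmel-1 T cells, whose transgenic receptor recognises gp100, came from mice. Both MC38 genotypes carry gp100, and the labels name no clone, guide or passage for the knockout and no age or sex for the mice. Each kind of cell received DMSO, GSK3326595 at 0.5 uM or MRTX1719 at 0.5 uM, for 5 days in MC38 cells and for 3 days in T cells, which are labelled WT and were kept in IL-2. GSK3326595 inhibits PRMT5 without needing methylthioadenosine (MTA), the substrate that MTAP clears, whereas MRTX1719 binds PRMT5 together with MTA. Each of the 9 groups held 3 libraries, apart from wild-type MC38 cells with MRTX1719, which held 2 (replicates 1 and 3).

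The spliceosome removes introns with snRNPs, each built on a small nuclear RNA around which a ring of Sm proteins closes. PRMT5 and its partners methylate arginines in the glycine-rich tails of SmB, SmD1, SmD3 and LSm4, and the SMN complex then loads the Sm ring onto the RNA. The methylation concerns the proteins, whereas the libraries measured the messenger RNAs that encode them, and poly(A) selection leaves the small nuclear RNAs themselves unmeasured. The LSm ring takes the place of the Sm ring on U6 RNA, and the U4/U6.U5 tri-snRNP brings the helicase and scaffold proteins that activate the spliceosome.

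The depth was 19302768 to 27786226 counts a library for the tumour cells and 13813406 to 20772699 for the T cells. The knocked-out gene, Mtap, had 264, 274 and 276 CPM (CPM being the count scaled by the TMM-adjusted library size) in untreated KO cells against 388, 393 and 397 CPM in wild-type cells, and the knockout libraries with MRTX1719 held 203, 206 and 205 CPM. The Mtap groups did not overlap. The counts cover the whole gene, so they do not show which part was edited or whether protein is made. T cell markers summed to 10979 to 11296 CPM in the T cell libraries under DMSO, to 13862 to 15255 CPM with GSK3326595 and to 11898 to 12548 CPM with MRTX1719, with Cd4, Foxp3 and Cd40lg together at no more than 1.85 CPM in any T cell library. The 7 leukocyte markers, which include Ptprc and Cd3e, summed to at most 3.27 CPM in any MC38 library. In T cells, which express both, they summed to 1513 to 1600 CPM under DMSO, 2303 to 2438 CPM with GSK3326595 and 1498 to 1551 CPM with MRTX1719. The B, myeloid and NK markers summed to 5.61 to 6.49 CPM in T cells under DMSO. Those sums were 8.33 to 9.87 CPM with GSK3326595 and 8.50 to 10.7 CPM with MRTX1719. Epithelial and colon markers were low in the MC38 libraries and moved with the groups. The 8 listed summed to 22.3 to 24.9 CPM in wild-type cells under DMSO, 39.1 to 40.8 CPM with GSK3326595 and 24.7 to 25.3 CPM with MRTX1719. In KO cells they summed to 14.6 to 15.9 CPM under DMSO, 59.9 to 62.6 CPM with GSK3326595 and 59.3 to 60.9 CPM with MRTX1719, and 2 of the 8 were at 0 counts in both lines under DMSO. Summed levels of 8 immediate early genes moved with the groups, from 2648 to 2739 CPM in wild-type MC38 cells under DMSO to 792 to 817 CPM in KO cells under DMSO and 483 to 497 CPM in KO cells with MRTX1719. In T cells the same sum was 809 to 853 CPM under DMSO, 510 to 535 CPM with GSK3326595 and 685 to 698 CPM with MRTX1719. The 5 listed nuclear retained RNAs summed to 753 to 781 CPM in KO cells under DMSO and 504 to 543 CPM with MRTX1719, and to 6174 to 6490 CPM in T cells under DMSO, 5792 to 5975 CPM with GSK3326595 and 7265 to 7827 CPM with MRTX1719. The part of these shifts, in markers and in the other sums, in the results below was not tested. KO GSK3326595 replicate 1 stood apart from its partners, with a chi-square per gene of 2.83 and 2.75 against them, where the other pair had 1.63. Without it 18 members rose and 8 fell with GSK3326595 in KO cells, against 20 and 7 with it.

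The members changed in both directions between the untreated MC38 lines. Those that changed with either inhibitor in KO cells and in T cells did so mostly upward. A gene was called changed at an adjusted p under 0.05 in edgeR's quasi-likelihood test, with Benjamini-Hochberg correction across every gene of the table, and log2 fold changes are given ± standard error (SE). Because many genes passed in most comparisons, the count of members in each comparison is first set beside the share of all tested genes that passed in the same direction. Counts by role, which rest on few genes, are to be read against those same shares, which cover genes of every length. The heat map of log2 fold changes shows the members by role.

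**Figure D1:**
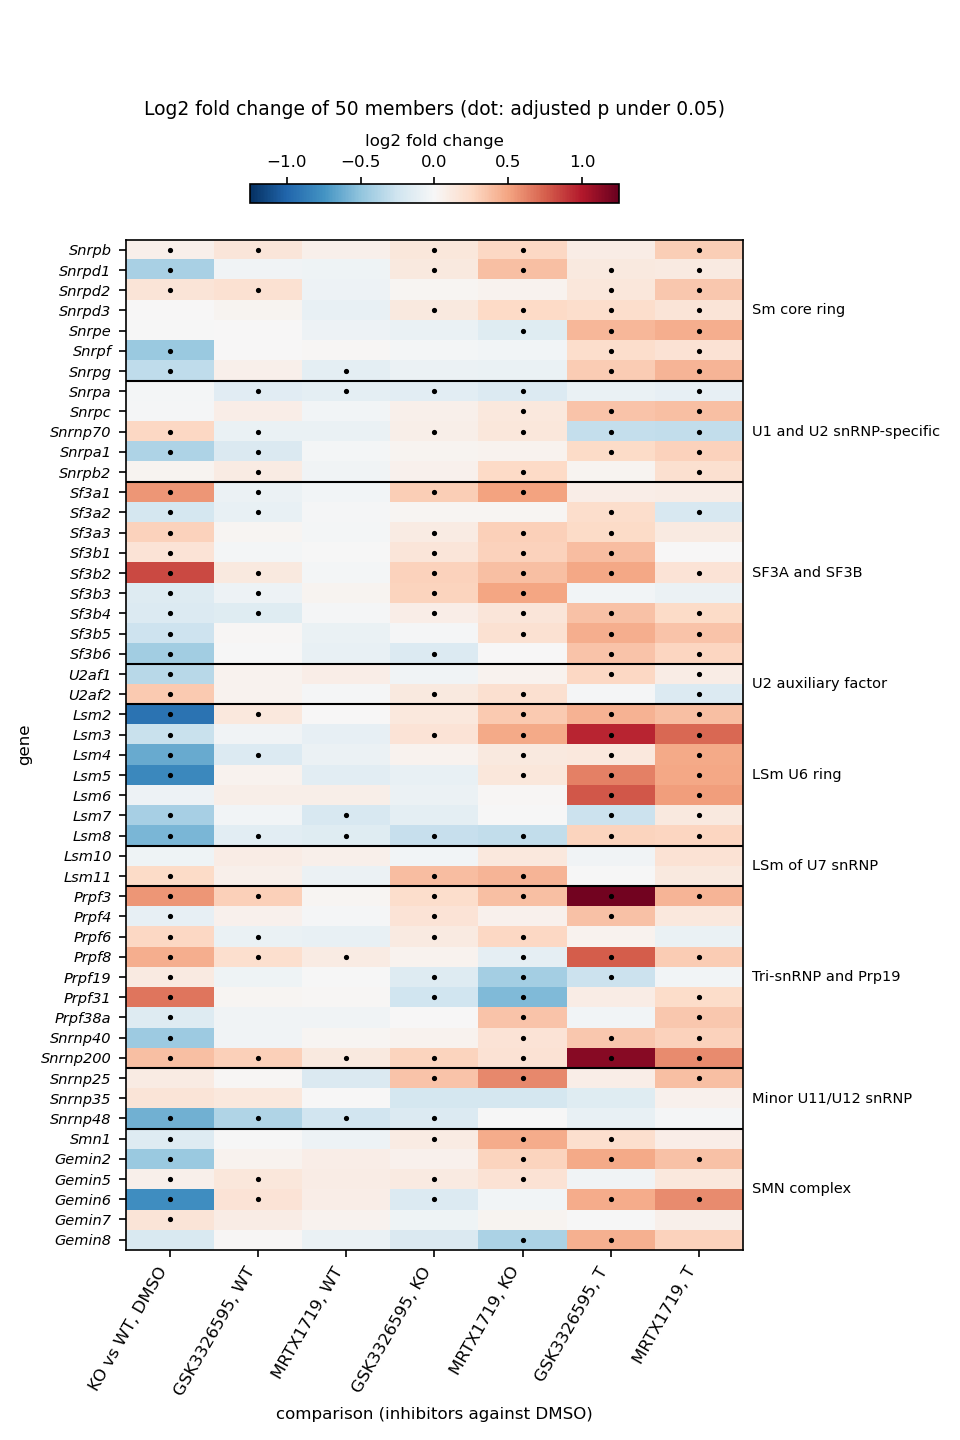
Log2 fold changes of the 50 tested members (rows, grouped by role) in 7 comparisons (columns), with red for higher, blue for lower and a dot where the edgeR adjusted p was under 0.05. The T cell columns hold 31 red dotted members each, the MRTX1719 column of wild-type MC38 cells holds 2, and the LSm ring is blue in KO against wild-type cells.

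Between KO and wild-type cells under DMSO, 17 members were higher in KO cells, against 36.2% of all genes, 23 were lower, against 37.0% of all genes, and 10 did not pass. Their median log2 fold change was -0.06, where that of all tested genes was 0.01. With GSK3326595 in wild-type cells, 10 members rose (20.1% of all genes did) and 11 fell (21.1% of all genes), with a median of 0.02. With MRTX1719 in wild-type cells, 2 members rose (3.62% of all genes) and 5 fell (3.91% of all genes), with a median of -0.03. The GSK3326595 shares of the members were close to the background in wild-type cells. With MRTX1719 the members that fell were 5 of 50, and most of those calls depended on single libraries, as given with Snrnp48 below.

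In KO cells, GSK3326595 raised 20 members (27.7% of all genes rose) and lowered 7 (25.1% of all genes fell), with a median log2 fold change of 0.04. With MRTX1719, 28 members rose (37.0% of all genes) and 7 fell (33.6% of all genes), with a median of 0.14. In T cells, 31 members rose with GSK3326595 (26.6% of all genes) and 3 fell (26.2% of all genes), with a median of 0.22. With MRTX1719, 31 members rose in T cells (18.9% of all genes) and 4 fell (18.5% of all genes), again with a median of 0.22. The upward counts with either inhibitor in KO cells and in T cells lay above the background, and the downward counts lay below it. Within each kind of cell both inhibitors were set against the same DMSO libraries, so their counts are not independent of each other.

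The summed level of the members was 5337, 5299 and 5287 CPM in the wild-type libraries under DMSO and 5774, 5814 and 5754 CPM in the KO libraries. With GSK3326595 in wild-type cells it was 5469, 5442 and 5491 CPM, above every DMSO library of that line. With MRTX1719 in wild-type cells it was 5317 and 5302 CPM, within the DMSO range. With GSK3326595 in KO cells it was 6293, 6221 and 6226 CPM, and with MRTX1719 it was 6486, 6515 and 6482 CPM. The 3 KO groups did not overlap. In T cells it was 5889, 5791 and 6065 CPM under DMSO, 6945, 7068 and 6943 CPM with GSK3326595, and 6325, 6458 and 6470 CPM with MRTX1719, again without overlap. A sum weighs abundant genes most, and between the untreated MC38 lines the roles went different ways. The tri-snRNP and Prp19 genes summed to 1459, 1477 and 1466 CPM in wild-type and 1830, 1845 and 1838 CPM in KO libraries. The U6 LSm ring summed to 347, 326 and 337 CPM in wild-type and 229, 241 and 238 CPM in KO libraries. Bulk libraries cannot tell a change in the RNA per cell from a change in the mix of cells.

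The Sm ring consists of SmB, SmD1, SmD2, SmD3, SmE, SmF and SmG. In T cells all 7 ring genes rose with MRTX1719 and 6 of 7 rose with GSK3326595, with medians of 0.31 and 0.22 on the log2 scale, where 18.9% and 26.6% of all genes rose. In MC38 cells the ring did not move as a block: 2 genes were higher and 3 lower in KO than in wild-type cells, and with MRTX1719 in KO cells 3 rose and 1 fell. Against 37.0% of all genes lower in KO cells and 37.0% rising with MRTX1719, 3 of 7 is near the background, and these MC38 counts show nothing particular to the ring. The 3 genes that rose with MRTX1719 in KO cells were Snrpb, Snrpd1 and Snrpd3, which encode SmB, SmD1 and SmD3. The same 3, and no other ring gene, rose with GSK3326595 in KO cells, by 0.15, 0.12 and 0.13 on the log2 scale. Of all genes 27.7% rose there. SmB, SmD1 and SmD3 are the ring proteins with arginine and glycine-rich tails. Their coding sequences held 8, 10 and 7 codon pairs that read arginine then glycine, where those of the other 4 ring genes held 1 or 2. Lsm4, outside the ring, held 8 such pairs, rose with MRTX1719 in KO cells and did not pass with GSK3326595 there (0.04). In T cells these genes did not stand out: Snrpb was the only ring gene that did not pass with GSK3326595, and Snrpd1 rose least with MRTX1719. Spearman's rho between the number of these pairs and the log2 fold change was taken over all 50 members. In KO cells it was 0.16 with MRTX1719 and 0.33 with GSK3326595. With MRTX1719 and GSK3326595 it was 0.21 and 0.04 in wild-type cells, and -0.15 and -0.14 in T cells. For KO against wild-type cells under DMSO it was 0.22. Snrnp70, with 8 such pairs, rose by 0.14 with MRTX1719 in KO cells. The part of these pairs in the changes was not tested. The stretches below show examples of these pairs, holding 3 of the 8 in Snrpb and 5 of the 7 in Snrpd3. They are coding sequence only, in frame and 5′ to 3′ on the sense strand, from the GRCm38 annotation, and capitals mark each pair of codons for arginine followed by glycine.
Snrpb, coding bases 514 to 633 of 693, gene at chr2:130171414-130179403, minus strand: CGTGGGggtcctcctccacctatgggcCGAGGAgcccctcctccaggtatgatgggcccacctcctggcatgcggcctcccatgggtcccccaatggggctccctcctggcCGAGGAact
Snrpd3, coding bases 259 to 378 of 378, gene at chr10:75517551-75537381, plus strand: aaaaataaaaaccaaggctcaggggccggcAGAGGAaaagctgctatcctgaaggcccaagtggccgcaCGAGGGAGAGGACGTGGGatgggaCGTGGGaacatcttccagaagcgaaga
These are the reference sequences and no variant was read from the libraries.

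Snrpd1 was 113, 109 and 105 CPM in wild-type cells under DMSO and 82.0, 82.7 and 81.4 CPM in KO cells under DMSO. With MRTX1719 the KO libraries rose to 108, 106 and 106 CPM, within the range of the untreated wild-type libraries. With GSK3326595 the KO libraries held 82.1, 92.9 and 92.6 CPM, of which the lowest overlapped the DMSO libraries. The log2 fold change of Snrpd1 was -0.41 ± 0.033 (SE) for KO against wild type (edgeR adjusted p = 6.14e-23), 0.38 ± 0.033 for MRTX1719 in KO cells (adjusted p = 4.27e-20) and 0.12 ± 0.034 for GSK3326595 in KO cells (adjusted p = 0.000993). In wild-type cells neither inhibitor passed, with -0.04 ± 0.031 for GSK3326595 and -0.05 ± 0.035 for MRTX1719.

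Snrpd3 was 76.5, 81.4 and 78.9 CPM in KO cells under DMSO and 95.2, 99.9 and 86.2 CPM with MRTX1719, without overlap, a log2 fold change of 0.25 ± 0.035 (edgeR adjusted p = 3.61e-10). Snrpb was 218, 223 and 217 CPM in KO cells under DMSO and 258, 268 and 259 CPM with MRTX1719, a change of 0.25 ± 0.026 (edgeR adjusted p = 8.68e-15). The wild-type MRTX1719 libraries of Snrpb, at 224 and 213 CPM, overlapped the DMSO libraries at 219, 202 and 208 CPM. Snrpe moved the other way in KO cells, from 60.4, 61.1 and 59.0 CPM under DMSO to 54.2, 56.5 and 51.9 CPM with MRTX1719, a fall of -0.15 ± 0.039 on the log2 scale. Snrpf and Snrpg were lower in KO than in wild-type cells under DMSO, by log2 values of -0.46 ± 0.033 and -0.32 ± 0.037, and neither passed with either inhibitor in KO cells. Snrpd2 was 0.16 ± 0.035 higher in KO cells and Snrpb 0.07 ± 0.027 higher, and the latter call was lost without wild-type DMSO replicate 2 or 3 or KO DMSO replicate 2 (adjusted p up to 0.243). The rises of Snrpb and Snrpd2 with GSK3326595 in wild-type cells were 0.15 ± 0.026 and 0.19 ± 0.034.

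**Figure D2:**
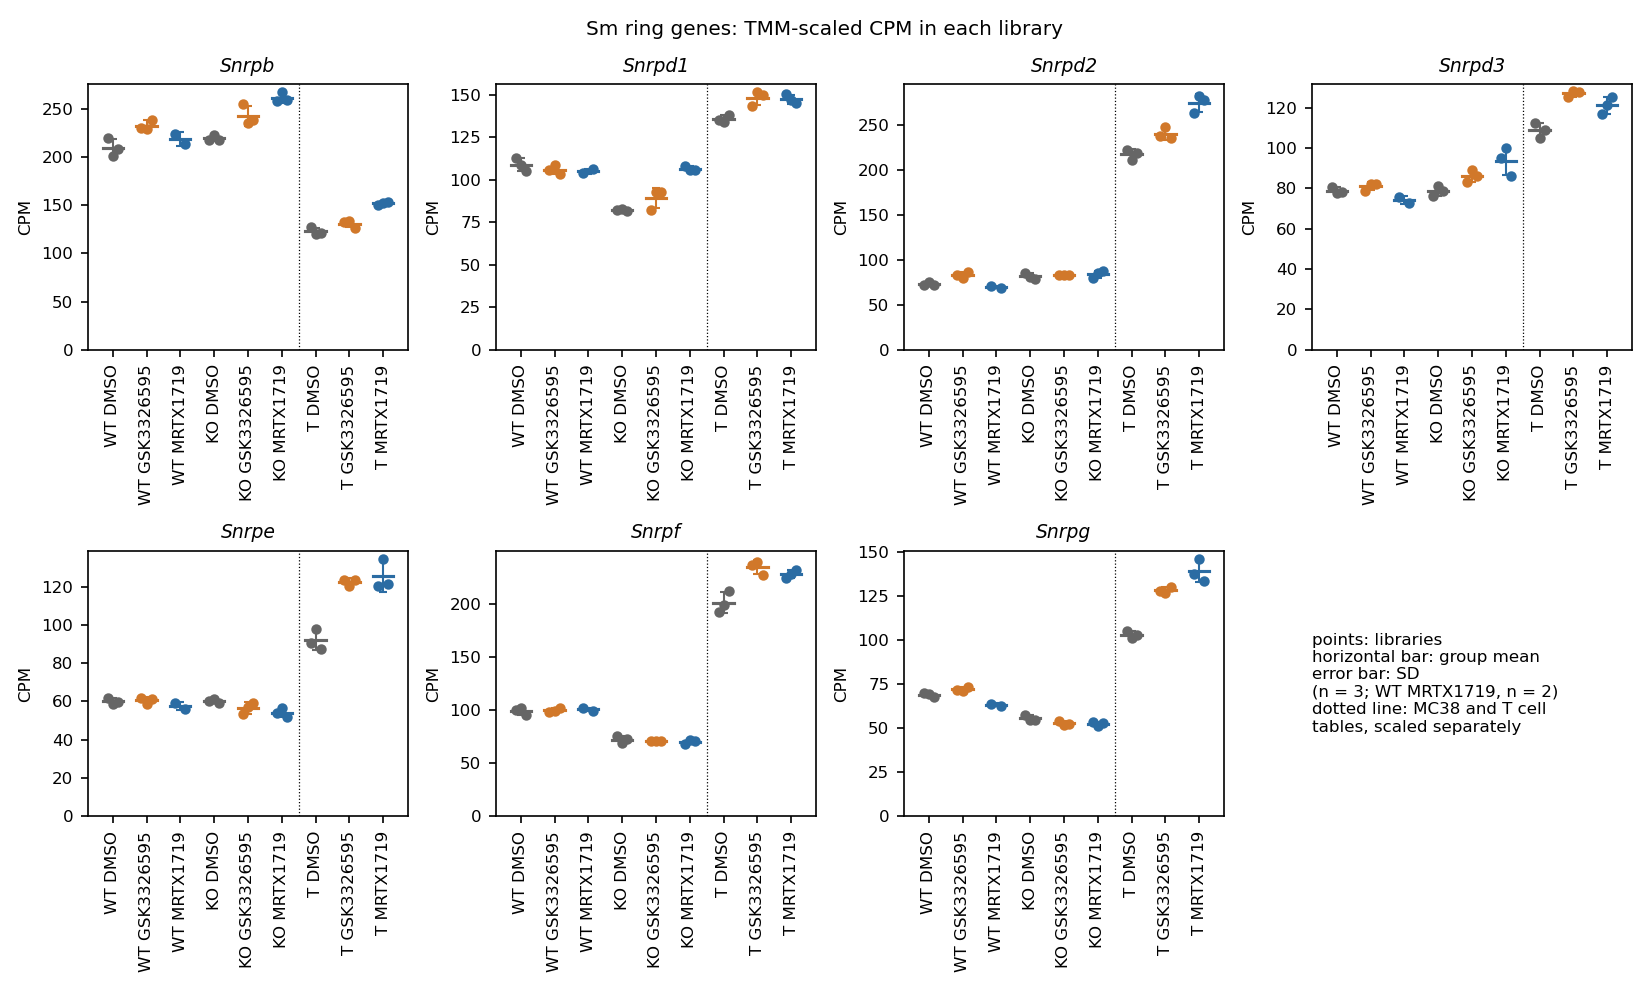
CPM of the 7 Sm ring genes (panels) in each library of the 9 groups (horizontal axis), with points for libraries, horizontal bars for group means and error bars for the SD (n = 3, or 2 for wild type with MRTX1719). The blue KO points of Snrpb, Snrpd1 and Snrpd3 lie above the grey KO points, and in T cells the coloured points of Snrpe, Snrpf and Snrpg lie above the grey ones.

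In T cells Snrpe was 90.5, 97.8 and 87.6 CPM under DMSO, 124, 120 and 124 CPM with GSK3326595 and 120, 135 and 122 CPM with MRTX1719. Both inhibitor groups lay above the DMSO libraries, by log2 values of 0.42 ± 0.045 (edgeR adjusted p = 1.43e-13) and 0.45 ± 0.045 (adjusted p = 1.71e-14). Snrpg was 105, 101 and 103 CPM under DMSO, 128, 127 and 130 CPM with GSK3326595 and 138, 146 and 134 CPM with MRTX1719, also without overlap. Snrpb did not pass with GSK3326595 in T cells (0.09 ± 0.041, adjusted p = 0.055) and rose by 0.31 ± 0.041 with MRTX1719. The direct comparison of the inhibitors had Snrpb higher with MRTX1719 by 0.22 ± 0.040 and Snrpd2 by 0.19 ± 0.037. Snrpd1 rose least among the ring genes with MRTX1719, by 0.12 ± 0.040, and that call was lost without T cell DMSO replicate 1 or MRTX1719 replicate 1 (adjusted p up to 0.0596).

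The LSm ring, encoded by Lsm2 to Lsm8, binds the end of U6 RNA. Of its 7 genes, 6 were lower in KO than in wild-type cells under DMSO and none was higher, with a median log2 fold change of -0.57, where 37.0% of all genes were lower. Lsm2 was 27.7, 25.7 and 26.0 CPM in wild-type cells and 13.4, 14.8 and 13.5 CPM in KO cells, a log2 fold change of -0.92 ± 0.064 (edgeR adjusted p = 4.34e-28) and the largest fall of any member. Lsm5 was 43.6, 39.6 and 42.3 CPM in wild-type cells and 23.6, 23.7 and 24.4 CPM in KO cells, a change of -0.81 ± 0.051. The wild-type and KO libraries of Lsm2 and Lsm5 were far from overlapping. Lsm4, the LSm protein with an arginine and glycine-rich tail, fell by 0.63 on the log2 scale, Lsm8 by 0.57, Lsm7 by 0.41 and Lsm3 by 0.28, while Lsm6 did not pass (-0.07).

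In KO cells with MRTX1719, 4 of the 7 LSm ring genes rose and Lsm8 fell (-0.31 ± 0.056). Of all genes, 37.0% rose and 33.6% fell there. Lsm3 was 15.5, 18.2 and 15.7 CPM in KO cells under DMSO and 22.0, 23.4 and 23.0 CPM with MRTX1719, a change of 0.47 ± 0.065 (edgeR adjusted p = 9.21e-11). These treated KO libraries lay above the untreated wild-type ones, at 20.2, 21 and 18.8 CPM. Lsm2 rose by 0.32 ± 0.070 but, at 16.6, 18.5 and 17 CPM, stayed below every wild-type library. Lsm4 rose by 0.12 ± 0.034 and Lsm5 by 0.14 ± 0.056. With GSK3326595 in KO cells Lsm3 rose by 0.18 ± 0.066, a call lost without KO DMSO replicate 1 or 3 or KO GSK3326595 replicate 2 (adjusted p up to 0.126), and Lsm8 fell by 0.29 on the log2 scale. In wild-type cells Lsm4 was lower with GSK3326595, by 0.17 on the log2 scale (-0.17 ± 0.030).

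In T cells the LSm ring rose with both inhibitors, 7 of 7 genes with MRTX1719 and 6 of 7 with GSK3326595, with medians of 0.48 and 0.43 on the log2 scale, where 18.9% and 26.6% of all genes rose. Lsm3 was 10.9, 11.6 and 11.5 CPM under DMSO, 22.5, 23.3 and 19.9 CPM with GSK3326595, and 17.2, 19.8 and 18.7 CPM with MRTX1719. Its log2 fold changes were 0.95 ± 0.092 (edgeR adjusted p = 1.09e-15) and 0.72 ± 0.095 (adjusted p = 6.07e-10). Neither inhibitor group overlapped the DMSO libraries. Lsm6 was 49.2, 54.0 and 55.2 CPM under DMSO, 91.3, 90.4 and 88.5 CPM with GSK3326595 and 71.4, 77.4 and 78.3 CPM with MRTX1719, with changes of 0.77 ± 0.050 and 0.53 ± 0.051. Lsm5 rose by 0.63 ± 0.066 and 0.48 ± 0.067. The inhibitors parted on Lsm7 and Lsm4: Lsm7 was 139, 135 and 153 CPM under DMSO, 115, 125 and 115 CPM with GSK3326595 and 150, 161 and 151 CPM with MRTX1719. Lsm7 thus fell with GSK3326595 (-0.27 ± 0.043) and rose with MRTX1719 (0.12 ± 0.043), although its MRTX1719 libraries overlapped those with DMSO. The direct comparison of the inhibitors had Lsm7 0.39 ± 0.043 and Lsm4 0.35 ± 0.039 higher with MRTX1719 on the log2 scale.

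The 2 LSm proteins of the U7 snRNP, which processes replication-dependent histone RNA, differed from each other. Lsm11 rose in KO cells with GSK3326595 (0.39 ± 0.051) and MRTX1719 (0.42 ± 0.051) and did not pass in wild-type cells or T cells. Lsm10 passed in none of the comparisons with DMSO and was 0.17 ± 0.066 higher with MRTX1719 than with GSK3326595 in KO cells (edgeR adjusted p = 0.0227).

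Among the U1 and U2 snRNP-specific genes, Snrnp70 encodes the U1-70K protein that contacts U1 RNA, Snrpa and Snrpc encode U1-A and U1-C, and Snrpa1 and Snrpb2 encode U2-A' and U2-B''. Snrnp70 was the member that fell most in T cells, from 836, 782 and 896 CPM under DMSO to 680, 720 and 640 CPM with GSK3326595 and 646, 681 and 702 CPM with MRTX1719. The DMSO libraries lay above all 6 treated ones, and the log2 fold changes were -0.30 ± 0.046 (edgeR adjusted p = 1.14e-05) and -0.31 ± 0.047 (adjusted p = 1.72e-05). In KO cells Snrnp70 rose instead, from 244, 236 and 235 CPM to 262, 271 and 255 CPM with MRTX1719, by 0.14 ± 0.024. With GSK3326595 Snrnp70 rose in KO cells (0.07 ± 0.024) and fell in wild-type cells (-0.09 ± 0.025), the latter lost without wild-type DMSO replicate 2. Snrpc rose in T cells by 0.36 ± 0.056 with GSK3326595 and 0.38 ± 0.057 with MRTX1719. Snrpb2 rose with MRTX1719 in KO cells (0.25 ± 0.036) and in T cells (0.20 ± 0.045). Snrpa1 was lower in KO than in wild-type cells under DMSO (-0.38 ± 0.043), lower with GSK3326595 in wild-type cells (-0.18 ± 0.041) and higher in T cells with GSK3326595 (0.24 ± 0.050) and MRTX1719 (0.29 ± 0.050). Snrpa fell in MC38 cells with GSK3326595 in both lines, by -0.14 ± 0.032 and -0.13 ± 0.033, and in KO cells with MRTX1719 by -0.18 ± 0.033. In T cells with MRTX1719 it was -0.11 ± 0.044 (adjusted p = 0.0492), a call lost without DMSO replicate 1 or 3 or any of the MRTX1719 replicates 1, 2 and 3 (adjusted p up to 0.400).

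SF3A and SF3B are the subcomplexes with which the U2 snRNP holds the branch site. In KO cells 7 of 9 genes rose with MRTX1719 and none fell, with a median log2 fold change of 0.29, where 37.0% of all genes rose. With GSK3326595 6 rose and 1 fell, where 27.7% of all genes rose. In wild-type cells none of the 9 passed with MRTX1719, which is near the background, as 3.62% of all genes rose and 3.91% fell. With GSK3326595 in wild-type cells 1 rose and 4 fell, where 20.1% of all genes rose and 21.1% fell. Sf3a1, the SF3A scaffold, was 101, 96.5 and 97.6 CPM in wild-type cells and 142, 149 and 142 CPM in KO cells under DMSO, then 180, 177 and 177 CPM with GSK3326595 and 206, 202 and 205 CPM with MRTX1719. The KO groups rose in steps that did not overlap, while the wild-type libraries with MRTX1719, at 97.8 and 94.3 CPM, were near the untreated ones. The log2 fold changes of Sf3a1 in KO cells were 0.30 ± 0.027 with GSK3326595 (edgeR adjusted p = 8.20e-20) and 0.50 ± 0.027 with MRTX1719 (adjusted p = 5.16e-38). Sf3b3 was 429, 419 and 429 CPM in wild-type and 375, 391 and 379 CPM in KO cells under DMSO, and 537, 537 and 534 CPM in KO cells with MRTX1719, a change of 0.49 ± 0.021. Sf3b3 was thus lower in untreated KO cells than in wild-type cells and higher than in both with the inhibitor. Sf3b2, a subunit that contacts RNA near the branch site, was the member with the largest excess in KO over wild-type cells under DMSO, from 299, 300 and 293 CPM to 520, 533 and 526 CPM (0.83 ± 0.021, adjusted p = 6.16e-75), and rose further with MRTX1719 to 692, 674 and 680 CPM. Sf3b1, the largest SF3B subunit and a gene mutated in several cancers, rose by 0.29 ± 0.021 with MRTX1719 in KO cells. With GSK3326595 in KO cells Sf3b1, Sf3b2 and Sf3b3 rose as well, by 0.15 ± 0.021, 0.29 ± 0.020 and 0.28 ± 0.021.

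In T cells 7 of the 9 SF3 genes rose with GSK3326595, where 26.6% of all genes rose, and with MRTX1719 4 rose and 1 fell, where 18.9% did. Sf3b1 was 759, 759 and 772 CPM under DMSO, 982, 974 and 1028 CPM with GSK3326595 and 761, 758 and 786 CPM with MRTX1719. The GSK3326595 libraries stood apart (0.38 ± 0.032, edgeR adjusted p = 1.65e-18), the MRTX1719 libraries overlapped those with DMSO (0.01), and the inhibitors differed directly by -0.37 ± 0.032 (adjusted p = 1.40e-17). Sf3b2 rose by 0.48 ± 0.037 with GSK3326595 and by 0.17 ± 0.037 with MRTX1719. Sf3b5 rose by 0.46 ± 0.050 and 0.36 ± 0.051. Sf3a2 rose with GSK3326595 (0.22 ± 0.048) and fell with MRTX1719 (-0.20 ± 0.049), the latter lost without MRTX1719 replicate 2 (adjusted p = 0.0517), and the direct difference was -0.42 ± 0.048. The U2 auxiliary factor recognises the end of the intron ahead of SF3. Its small subunit gene U2af1 rose with GSK3326595 in T cells (0.26 ± 0.037), and its large subunit gene U2af2 fell with MRTX1719 (-0.17 ± 0.037). In MC38 cells the subunits also differed: U2af1 was lower (-0.35 ± 0.028) and U2af2 higher (0.32 ± 0.025) in KO than in wild-type cells under DMSO.

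The largest changes of any members were those of tri-snRNP genes in T cells. Prpf3 encodes a protein of the U4/U6 snRNP, Snrnp200 the Brr2 helicase that unwinds U4 from U6, and Prpf8 the scaffold at the centre of the spliceosome. In T cells Prpf3 was 49.5, 53.7 and 50.9 CPM under DMSO, 116, 117 and 121 CPM with GSK3326595 and 65.0, 71.0 and 70.0 CPM with MRTX1719. Snrnp200 was 182, 181 and 181 CPM under DMSO, 403, 394 and 398 CPM with GSK3326595 and 268, 279 and 274 CPM with MRTX1719. Prpf8 was 348, 351 and 356 CPM under DMSO, 591, 604 and 589 CPM with GSK3326595 and 450, 421 and 445 CPM with MRTX1719. For each of these genes the 3 groups did not overlap and MRTX1719 lay between DMSO and GSK3326595. With GSK3326595 the log2 fold changes were 1.20 ± 0.048 for Prpf3 (edgeR adjusted p = 1.79e-39), 1.14 ± 0.036 for Snrnp200 (adjusted p = 7.54e-47) and 0.76 ± 0.034 for Prpf8 (adjusted p = 1.95e-35). With MRTX1719 they were 0.43 ± 0.051, 0.60 ± 0.036 and 0.32 ± 0.035, and the direct differences, MRTX1719 minus GSK3326595, were -0.78 ± 0.046, -0.54 ± 0.035 and -0.44 ± 0.034. Prpf3 and Snrnp200 were the 2 members that changed by at least 1 on the log2 scale in any comparison.

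**Figure D3:**
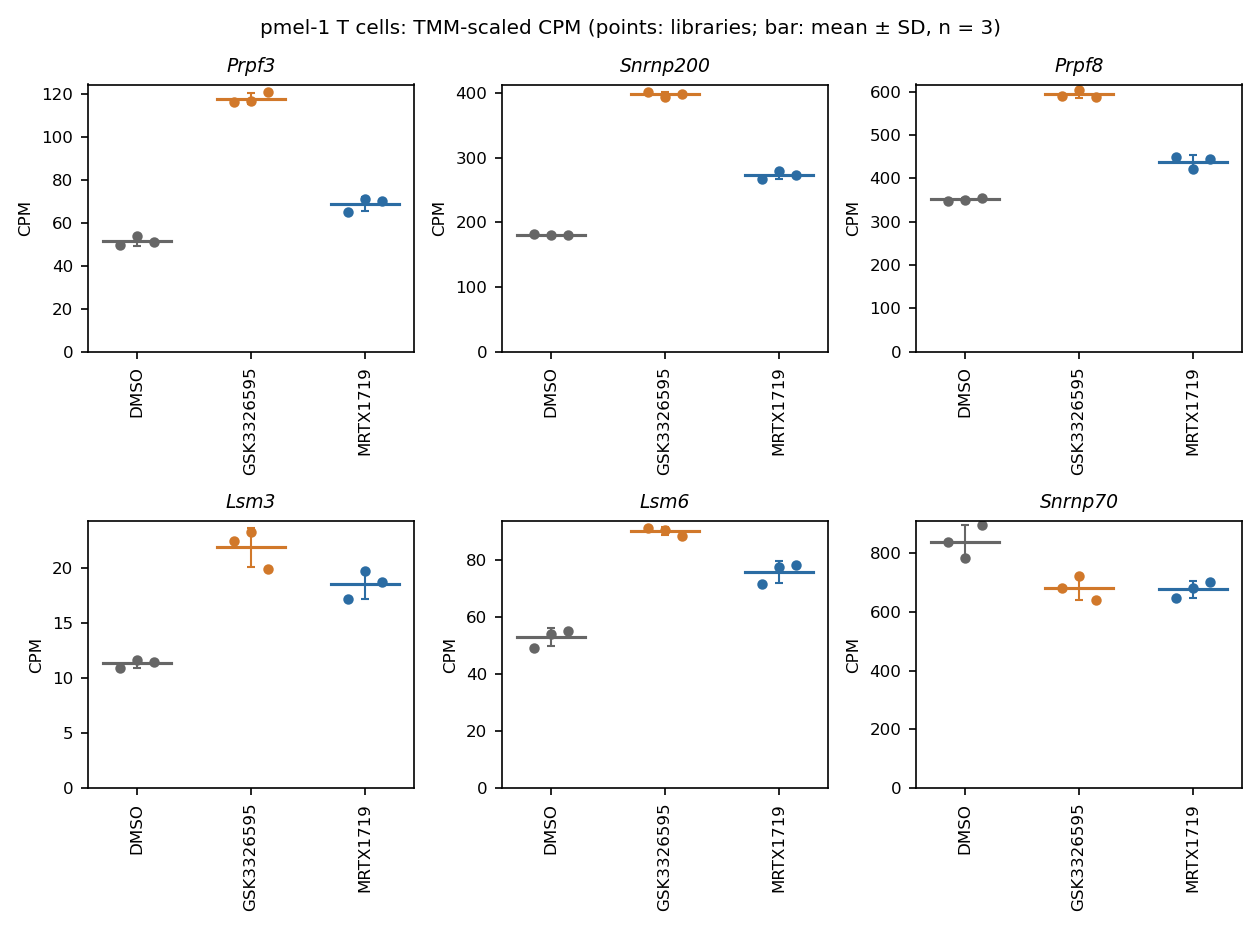
CPM of 6 members in the T cell libraries (points) by treatment (horizontal axis), with bars for the mean ± SD (n = 3). Prpf3, Snrnp200 and Prpf8 step from DMSO through MRTX1719 to GSK3326595, Lsm3 and Lsm6 rise with both inhibitors, and Snrnp70 falls from 782 to 896 CPM under DMSO to 640 to 720 CPM with the inhibitors.

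Prpf3 and Snrnp200 also rose with GSK3326595 in wild-type MC38 cells, each by 0.30 on the log2 scale. Prpf3 was 87.6, 87.7 and 90.7 CPM under DMSO and 110, 110 and 107 CPM with GSK3326595, and Snrnp200 was 279, 286 and 280 CPM and 346, 346 and 348 CPM. Those groups did not overlap. With MRTX1719 in wild-type cells Snrnp200 rose by 0.12 ± 0.024 (edgeR adjusted p = 0.000247) and Prpf8 by 0.10 ± 0.021 (adjusted p = 0.000525), the only 2 members that rose there. Prpf3 did not pass there (0.02). In KO cells Prpf3 rose with MRTX1719 by 0.38 ± 0.028 and Snrnp200 by 0.18 ± 0.021, whereas Prpf8 fell by 0.11 on the log2 scale, from 816, 795 and 801 CPM to 742, 742 and 744 CPM. With GSK3326595 in KO cells Prpf3 rose by 0.22 ± 0.028 and Snrnp200 by 0.28 ± 0.021, and Prpf8 did not pass (0.04).

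The promoters of Snrnp200 and Prpf3 are shown because these genes changed most. Both lines give 100 bases just ahead of the annotated start, 5′ to 3′ on the gene's strand, from RefSeq on GRCm38.p6, with capitals for a match to the 1 motif named on the line.
Snrnp200, chr2:127208286-127208385, plus strand, capitals CCGGAAG (ETS family motif): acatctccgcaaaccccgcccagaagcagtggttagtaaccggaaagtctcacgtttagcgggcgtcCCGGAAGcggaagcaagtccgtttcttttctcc
Prpf3, chr3:95855886-95855985, minus strand, capitals for the NRF1 motif (GCGC, any base, then TGCGC): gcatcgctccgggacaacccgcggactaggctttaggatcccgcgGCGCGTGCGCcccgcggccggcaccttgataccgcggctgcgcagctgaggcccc
Of the 51 members, 44 had a 300-base promoter in the table, from 250 bases ahead of the start to 50 bases after it, and motifs were searched on both strands. CCGGAAG was present in 17 of the 44 (38.6%), against 9.93% of 27025 genes with a promoter and 19.9% of the 10299 such genes tested. Both Snrnp200 and Prpf3 were among the 17. Prpf3 held its CCGGAAG match, and a match to CACGTG, outside the 100 bases shown. The NRF1 motif was present in 10 (22.7%), against 5.19% of all and 11.3% of tested genes. GGGCGG, the GC box, was present in 68.2% against 67.6% of tested genes. The CCAAT box was present in 38.6% against 43.8%, CACGTG in 4.55% against 11.4%, ATGGCGGC (YY1) in 4.55% against 5.64%, and TATAAA in 6.82% against 9.21%. None of these motifs contains another, and a match describes the sequence and does not show binding.

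In KO cells with MRTX1719 the tri-snRNP and Prp19 genes moved in both directions: 5 of 9 rose, and Prpf31, Prpf19 and Prpf8 fell, where 37.0% of all genes rose and 33.6% fell. Prpf31 encodes a protein that holds U4/U6 and U5 together, and Prpf19 a ubiquitin ligase at the core of the Prp19 complex. Prpf31 was 24.7, 26.6 and 25.1 CPM in wild-type and 38.5, 40.1 and 42.9 CPM in KO cells under DMSO, 34.2, 35.6 and 32.6 CPM in KO cells with GSK3326595 and 27.5, 27.2 and 28.6 CPM with MRTX1719. It thus stood higher in untreated KO cells (0.67 ± 0.051) and fell with both inhibitors, by -0.25 ± 0.048 and -0.55 ± 0.050 (edgeR adjusted p = 3.24e-06 and 1.17e-19), with MRTX1719 to just above the wild-type range. Prpf19 was 243, 257 and 250 CPM in KO cells under DMSO, 221, 220 and 228 CPM with GSK3326595 and 188, 190 and 181 CPM with MRTX1719 (-0.43 ± 0.025, adjusted p = 5.45e-35). The 3 KO groups of Prpf31 and of Prpf19 did not overlap. In wild-type cells neither gene passed with either inhibitor. In T cells Prpf19 fell with GSK3326595 (-0.26 ± 0.043) and Prpf31 rose with MRTX1719 (0.23 ± 0.044). Prpf38a, needed for spliceosome activation, rose with MRTX1719 in KO cells (0.35 ± 0.043) and in T cells (0.34 ± 0.079) and passed with GSK3326595 in neither. Among the remaining genes of the group, Prpf6 rose in KO cells with MRTX1719 (0.26 ± 0.030) and with GSK3326595 (0.11 ± 0.030). Prpf4 rose with GSK3326595 in T cells (0.36 ± 0.062), and Snrnp40 was lower in KO than in wild-type cells (-0.46 ± 0.042).

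The minor spliceosome removes a rare class of introns with the U11 and U12 snRNPs. Snrnp25 rose most of all members with MRTX1719 in KO cells, from 15.6, 15.7 and 13.7 CPM to 23.1, 24.0 and 21 CPM (0.60 ± 0.068, edgeR adjusted p = 1.97e-14), and with GSK3326595 it was 19.1, 20.1 and 18.2 CPM. In T cells Snrnp25 rose with MRTX1719 (0.38 ± 0.063). Snrnp48 was 70.8, 70.8 and 72.3 CPM in wild-type cells under DMSO, 53.0, 56.8 and 55.3 CPM with GSK3326595 and 59.0 and 61.8 CPM with MRTX1719. It fell by -0.37 ± 0.037 and -0.24 ± 0.040, the largest fall with each inhibitor in wild-type cells, and was the 1 member of the 5 that fell with MRTX1719 there whose call held with each library left out in turn. The falls of Lsm7 (-0.20), Lsm8 (-0.16), Snrpg (-0.12) and Snrpa (-0.12) were lost without at least one of wild-type DMSO replicates 1, 2 and 3 and MRTX1719 replicates 1 and 3, with adjusted p up to 0.257. The count of called members was 4 without wild-type DMSO replicate 1, 4 without MRTX1719 replicate 1 and 3 without MRTX1719 replicate 3. Snrnp35, at 5.08 to 5.57 CPM in wild-type cells under DMSO, passed in none of the comparisons.

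The SMN complex assembles Sm rings on the small nuclear RNAs. Smn1, which encodes the SMN protein, was 44.6, 42.6 and 43.2 CPM in KO cells under DMSO, 48.7, 46.0 and 45.6 CPM with GSK3326595 and 58.5, 61.8 and 58.7 CPM with MRTX1719. The MRTX1719 libraries lay above all others (0.46 ± 0.041, edgeR adjusted p = 1.60e-20), including the wild-type libraries with MRTX1719 at 45.6 and 47.7 CPM. Gemin2, the partner that holds the Sm ring in the complex, rose in KO cells with MRTX1719 (0.28 ± 0.064) and in T cells with GSK3326595 (0.48 ± 0.095) and MRTX1719 (0.37 ± 0.097). Gemin5, which recognises the small nuclear RNA, rose in KO cells with MRTX1719 by 0.18 ± 0.030. With GSK3326595 Gemin5 rose by 0.12 ± 0.030 in KO cells and by 0.14 ± 0.030 in wild-type cells. Gemin6 was 21.4, 21 and 21.1 CPM in wild-type and 11.9, 12.6 and 12.6 CPM in KO cells under DMSO (-0.77 ± 0.068). In T cells Gemin6 was 5.75, 5.82 and 6.79 CPM under DMSO, 7.21, 10.3 and 7.99 CPM with GSK3326595 and 8.70, 8.56 and 10.2 CPM with MRTX1719. It rose by 0.46 ± 0.14 and 0.59 ± 0.14, and the former was 0.31 and did not pass without GSK3326595 replicate 2 (adjusted p = 0.0644). Gemin8 fell with MRTX1719 in KO cells (-0.40 ± 0.12) from levels of 5.88 to 7.44 CPM, and Gemin7 passed with neither inhibitor in any kind of cell.

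Whether an inhibitor acted on the members differently in KO and in wild-type cells was tested as the difference of the effects, KO minus wild type. The labels name no clone. Here, and between the untreated lines, loss of Mtap therefore cannot be told apart from other differences between the lines. For MRTX1719, 28 members had a higher effect in KO cells (30.3% of all genes did) and 3 a lower one (27.9% of all genes), with a median difference of 0.18 on the log2 scale. For GSK3326595, 15 members had a higher effect in KO cells (22.0% of all genes) and 8 a lower one (20.2% of all genes), with a median of -0.01. The largest MRTX1719 differences were 0.78 ± 0.11 for Snrnp25, 0.57 ± 0.095 for Lsm3, 0.53 ± 0.043 for Sf3a1 and 0.52 ± 0.061 for Smn1. The 3 lower ones were Prpf31 (-0.56 ± 0.078), Prpf19 (-0.42 ± 0.036) and Prpf8 (-0.21 ± 0.028), and all 3 belong to the tri-snRNP and Prp19 group. By role, the MRTX1719 difference was higher in 7 of 9 SF3 genes, in 5 of 7 LSm ring genes and in 3 of 7 Sm ring genes, those being Snrpb (0.19 ± 0.039), Snrpd1 (0.43 ± 0.048) and Snrpd3 (0.34 ± 0.053).

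**Figure D4:**
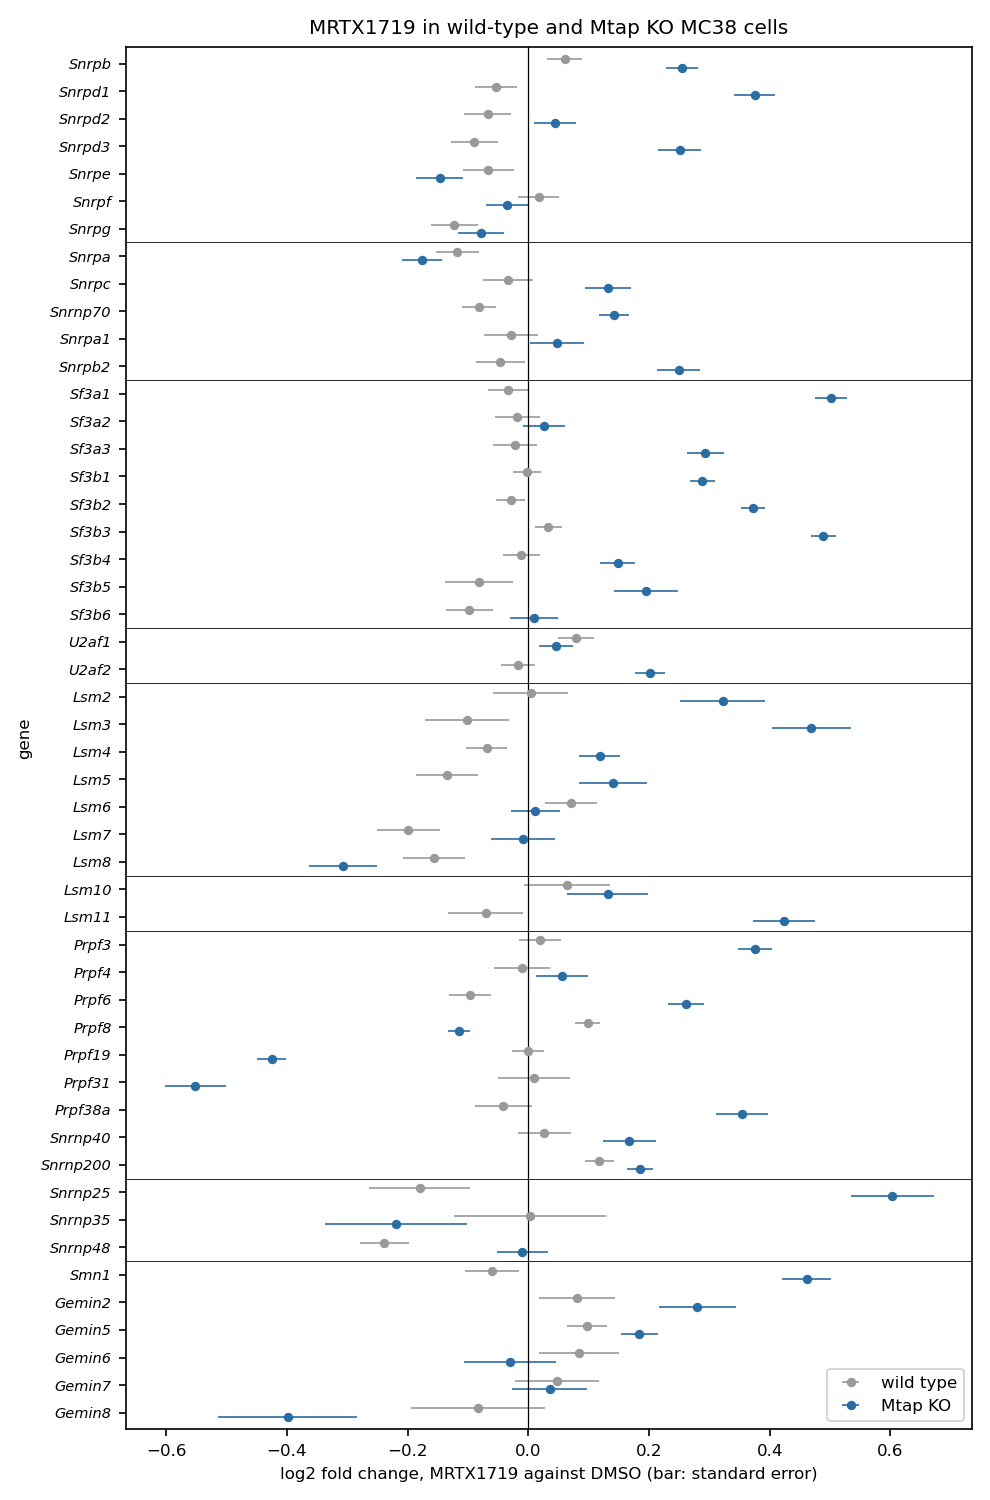
Log2 fold change of MRTX1719 against DMSO (horizontal axis, bars for the SE) for the 50 tested members (vertical axis, lines between roles), in wild-type cells (grey) and Mtap KO cells (blue). The grey points stay between -0.24 and 0.12, and the blue points run from -0.55 for Prpf31 to 0.60 for Snrnp25.

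The inhibitors were also set against each other directly at the same dose and time. In wild-type MC38 cells 5 members were higher with MRTX1719 than with GSK3326595 (15.4% of all genes were) and 13 were lower (14.6% of all genes), led by Prpf3 (-0.28 ± 0.033) and Snrpd2 (-0.26 ± 0.038). In KO cells 29 were higher with MRTX1719 (28.3% of all genes) and 5 lower (24.9% of all genes). The higher ones were led by Smn1 (0.35 ± 0.040), Prpf38a (0.35 ± 0.042) and Lsm3 (0.29 ± 0.062), and the lower ones were Prpf31 (-0.30 ± 0.051), Prpf19 (-0.26 ± 0.025), Prpf8, Prpf4 and Snrnp200. The Prpf4 call was lost without KO GSK3326595 replicate 3 or KO MRTX1719 replicate 3 (adjusted p up to 0.0932). In T cells 11 were higher with MRTX1719 (19.3% of all genes) and 14 lower (19.7% of all genes). There the higher ones included Lsm7, Prpf38a (0.37 ± 0.078) and Snrnp25 (0.29 ± 0.061), and none of the 9 SF3 genes was higher while 4 were lower. Prpf8 and Snrnp200 were lower with MRTX1719 than with GSK3326595 in all 3 kinds of cell, whereas Prpf3 was lower in wild-type MC38 and T cells and higher in KO cells (0.16 ± 0.027).

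The members differ widely in length, and the changes followed length in some comparisons. The coding sequences were divided at their median of 765 bases into 26 short and 24 long members, where the short ones include every gene of the Sm ring and of the U6 LSm ring. In KO against wild-type cells under DMSO, 3 short members were higher and 14 lower (median log2 fold change -0.27), while 14 long members were higher and 9 lower (median 0.14). Spearman's rho between coding length and log2 fold change was 0.58 across the 50 members and 0.03 across 12237 genes. In T cells with MRTX1719, 22 of the 26 short members rose and none fell, and 9 long members rose and 4 fell. There rho was -0.45 across the members and -0.31 across 11263 genes, and the median of all short genes was 0.15 against -0.03 for all long genes. In T cells with GSK3326595, 19 short members rose and 1 fell, 12 long members rose and 2 fell, and rho was -0.13 across the members and -0.16 across all genes. In MC38 cells rho was 0.42 with GSK3326595 in KO cells (0.20 across all genes), 0.24 with MRTX1719 in KO cells (0.09), 0.40 with MRTX1719 in wild-type cells (0.05) and -0.01 with GSK3326595 in wild-type cells (-0.09). The median of all short genes against all long genes was 0.13 against -0.03 with GSK3326595 in T cells. It was -0.06 against -0.02 in KO against wild-type cells under DMSO. The shares of all genes given above cover genes of every length, and no share was taken for short or long genes alone. The short and long counts, and those of the Sm and LSm rings, thus have no background matched for length. The genes share libraries and are not independent replicates, so these correlations are descriptions. The part of length in the members' changes was not tested.

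**Figure D5:**
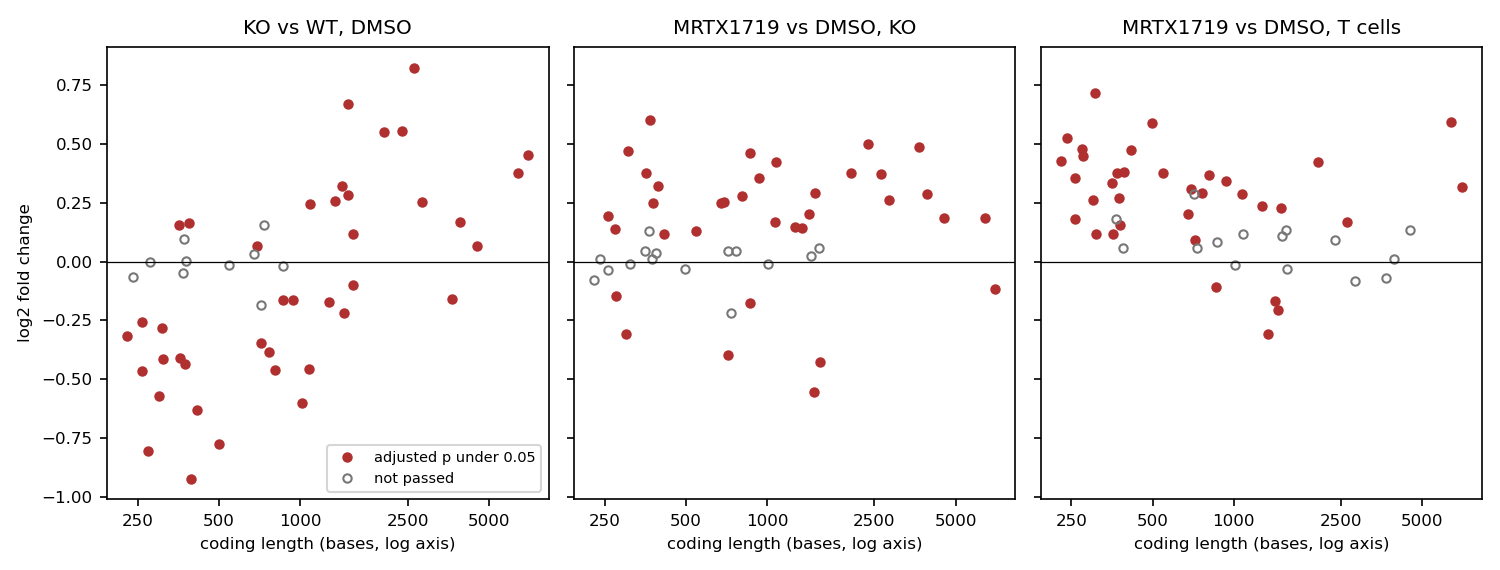
Log2 fold change of the 50 members (vertical axis) against coding length in bases (horizontal log axis), for KO against wild type under DMSO, MRTX1719 in KO cells and MRTX1719 in T cells, with filled points for an edgeR adjusted p under 0.05. Short members lie low in the first panel, where rho was 0.58, and high in the third, where rho was -0.45.

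Of 71 other spliceosome and snRNP genes, 70 were tested, and Snrpn, a close copy of Snrpb, was the one that did not pass the filter. With MRTX1719 in KO cells 52 of the 70 rose and 9 fell (median log2 fold change 0.26), where 37.0% and 33.6% of all genes did. With GSK3326595 38 rose and 10 fell, where 27.7% and 25.1% of all genes did. In wild-type cells 27 rose and 15 fell with GSK3326595, where 20.1% and 21.1% of all genes did. With MRTX1719 in wild-type cells 6 rose and 3 fell, where 3.62% and 3.91% of all genes did. In T cells 29 rose and 17 fell with GSK3326595 (median 0.05), where 26.6% and 26.2% of all genes did, and 25 rose and 8 fell with MRTX1719 (median 0.07), where 18.9% and 18.5% did. The listed members had a higher median than these genes in T cells (0.22 with each inhibitor) and a lower one in KO cells with MRTX1719 (0.14), and these differences between lists were not tested. The 2 largest rises with MRTX1719 in KO cells were in Smndc1, a splicing factor that binds methylated Sm tails (0.69), and Coprs, a partner of PRMT5 (0.69). The 2 largest falls were in Prpf40b, a U1-associated protein (-0.59), and in Zrsr1, related to the small U2AF subunit (-0.32). The difference of the MRTX1719 effects between KO and wild-type cells was higher for 47 of the 70 and lower for 9, where 30.3% and 27.9% of all genes were. Prmt5 itself, the inhibitors' target, was 143, 149 and 144 CPM in wild-type and 98.6, 97.0 and 96.7 CPM in KO cells under DMSO, and 110, 110 and 110 CPM in KO cells with MRTX1719. In T cells Prmt5 fell with GSK3326595 (-0.22 ± 0.037) and rose with MRTX1719 (0.12 ± 0.037).

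The mean of the 7 Sm ring genes over the 6 MC38 groups, on a log2 CPM scale centred over groups, was highest in wild-type cells with GSK3326595 (0.10), then in wild-type cells under DMSO (0.05), and lowest in KO cells under DMSO (-0.09). The 10 tested non-members closest to this profile by Pearson's r over the 6 group means were Tpbg (0.988), Snrnp27 (0.986), Polb (0.985), Ebna1bp2 (0.982), Ddx10 (0.982), Serf2 (0.981), Phlda3 (0.980), Mtif3 (0.977), Psmb1 (0.977) and Cnih4 (0.974). One of them, Snrnp27, encodes a protein of the tri-snRNP. With 6 points and 14835 genes these values describe the profiles and carry no test. The mean also joins ring genes that went different ways, such as Snrpd2 (0.16) and Snrpf (-0.46) in KO against wild-type cells under DMSO. Likeness to the mean is therefore not likeness to each ring gene.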

How the data were processed

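The members were selected by symbol, but the list, the other gene lists and the tests were drawn up with earlier results of these data known, so the choice was not blind to the data. The tools named in the submitters' processing notes are DESeq 1.18.0, TopHat2 2.0.10 and Bowtie2 2.1.0, and the build is GRCm39 (mm39). Which program counted the reads, with which annotation and strand setting, is not given in the sources used here. Sm and LSm genes have near-identical pseudogenes, so their reads may be shared or split.

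For MC38 cells and for T cells the authors deposited a table of raw counts by gene identifier and a table of normalized signal by symbol. Each library's deposited signal is its raw count over a single size factor, and pairing rows on this relation within 1e-06 gave authors' symbols to 15629 of 15629 entries (MC38) and 15287 of 15300 (T cells).

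Raw counts were fitted in R 4.3.3 with edgeR 4.0.16 (TMM, filterByExpr, robust quasi-likelihood F test), all groups of a table in 1 fit without covariates. A run on simulated data changed a small part of the genes in 1 group. It cannot show error rates where most genes change, as between the MC38 lines. The labels do not say that replicates were separate cultures or animals, so p-values measure only the spread between libraries, which may be technical. Replicates differed by more than sampling noise (chi-square per gene 1.40 to 2.83 in MC38 cells, 1.96 to 3.74 in T cells). The common biological coefficient of variation was 0.0198 and 0.0372. Same-numbered replicates did not deviate together (r of -0.109 to 0.078 for the tumour cells, -0.129 to 0.080 for the T cells). The treatment labels end GSK3326595 with other digits in replicates 2 and 3 than the titles do, which was read as 1 compound throughout.

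Named by rule were the Sm ring genes and the called members with the largest changes (up to 10 per direction and comparison). So were members under the filter, the largest changes of other spliceosome genes, and the 10 genes most like the Sm ring. Some values outside this rule are also given, such as those of Lsm10, Prmt5 and Snrpc in T cells. For single genes, the alternatives were followed only for the ring genes and the called members with the largest changes. Other calls in the text were not checked with a library left out. Alternatives were DESeq2 1.42.0, its size factors, other filters, a replicate block, only the groups compared, and leaving out each library. Coding sequences came from the GRCm38 annotation and promoters from RefSeq GRCm38.p6, and no coordinates were converted. One coding stretch is not reported here.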

Additional observations from a re-analysis of the deposited data

Results flagged for a closer look

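Over all 50 tested members the inhibitor's effect differed between KO and wild-type MC38 cells for 28 upward and 3 downward with MRTX1719 (30.3% and 27.9% of all genes) and for 15 upward and 8 downward with GSK3326595 (22.0% and 20.2% of all genes). The values below are those of the members chosen by the naming rule, 15 with MRTX1719 and 19 with GSK3326595, so their numbers do not compare the inhibitors. The difference was called by the test of the difference itself (edgeR quasi-likelihood test, Benjamini-Hochberg adjusted p under 0.05 over all genes). Values are differences of log2 fold changes, KO minus wild type. With MRTX1719 the effect was higher in KO cells for Snrnp25 (0.78), Lsm3 (0.57), Sf3a1 (0.53), Smn1 (0.52), Lsm11 (0.49), Sf3b3 (0.46), Snrpd1 (0.43), Sf3b2 (0.40), Prpf38a (0.40), Prpf6 (0.36), Snrpd3 (0.34) and Snrpb (0.19). It was lower for Prpf31 (-0.56), Prpf19 (-0.42) and Prpf8 (-0.21). With GSK3326595 the effect was higher in KO cells for Sf3a1 (0.38), Sf3b3 (0.35), Snrnp25 (0.33), Lsm11 (0.32), Sf3b4 (0.24), Lsm3 (0.22), Snrpa1 (0.22), Lsm4 (0.21), Snrnp48 (0.20), Prpf6 (0.20) and Snrpd1 (0.16). It was lower for Gemin6 (-0.35), Prpf31 (-0.28), Snrpd2 (-0.17), Prpf8 (-0.17), Sf3b6 (-0.17), Lsm6 (-0.14), Snrpg (-0.13) and Prpf19 (-0.12). With GSK3326595 the difference of Lsm3 was lost without wild-type DMSO replicate 1 or 2, wild-type GSK3326595 replicate 3, KO DMSO replicate 1 or 3 or KO GSK3326595 replicate 2 (adjusted p up to 0.133). That of Lsm6 was lost without wild-type DMSO replicate 2, wild-type GSK3326595 replicate 3, KO DMSO replicate 2 or 3 or KO GSK3326595 replicate 2 (adjusted p up to 0.130). That of Snrpg was lost without wild-type DMSO replicate 3, wild-type GSK3326595 replicate 3, KO DMSO replicate 1 or KO GSK3326595 replicate 2 (adjusted p up to 0.0779).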

How the results depend on the processing

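The count of called members stayed within 1.5 times its value in 11 of the 12 comparisons under the alternatives run. The exception was MRTX1719 in wild-type cells, with 7 called members, against 4 with no low-count filter, 11 with only the compared groups in the fit, and 3 to 7 with 1 library left out, where a lone MRTX1719 library is assumed to vary like the other groups. The cause was not tested. With 1 library left out, the counts ran from 37 to 39 for KO against wild type (40 with all), 16 to 19 and 24 to 30 for GSK3326595 in wild-type and KO cells (21 and 27), 34 to 35 for MRTX1719 in KO cells (35), and 33 to 35 and 31 to 34 for GSK3326595 and MRTX1719 in T cells (34 and 35). Replicate numbers did not pair the samples, and with the replicate block the counts were 40, 21, 6, 26 and 35 in these MC38 comparisons in the order KO against wild type, GSK3326595 and MRTX1719 in wild-type cells, then in KO cells, and 34 and 33 in T cells. Of 216 calls of named members, 35 were lost with at least 1 library left out, and no fold change of a called member reversed. DESeq2's Wald test lost 12 of them. Depth limits the members at low levels: Gemin8, Snrnp35, Gemin6 and Lsm10 had the largest standard errors, averaged over the comparisons.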
